A study of Mus musculus with 48 samples.

Results

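Dietary sucrose was set against dietary starch, with oleate as the fat in both diets, in epididymal white adipose tissue of C3H/HeOuJ mice. The comparison uses 18 of the 48 samples of the study: 9 labelled sucrose/oleate and 9 labelled starch/oleate, chosen by their labels alone. Both groups are of the same inbred strain, were fed for 6 months, and drew 42% of their calories from carbohydrate and 42% from fat. Their labels differ only in the carbohydrate named. An assay control ratio that also separates them is given below. The other samples were on chow (n = 8), sucrose/palmitate (n = 8), starch/palmitate (n = 7) or a Western diet (n = 7). RNA was counted on the NanoString nCounter Mouse Immunology panel, in which barcoded probes bind RNA directly and are counted without amplification. No sample was left out. The labels do not say that the samples of a diet are separate animals, so the p-values measure the spread between these samples.

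Sucrose is a disaccharide of glucose and fructose, whereas starch is a polymer of glucose, and the liver and fat tissue handle fructose and glucose by different routes. Oleate is a monounsaturated fatty acid and palmitate a saturated one. White fat holds lipid-storing adipocytes within a bed of small vessels, with resident macrophages, mast cells and lymphocytes between them. With long overfeeding macrophages gather around stressed adipocytes and adipocyte transcripts tend to decline.

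Counts were scaled to the 14 reference genes of the panel, and the 491 of 547 immune genes that averaged 10 counts or more were tested. Total gene counts of the 18 libraries ran from 455563 to 755967, with a median of 642330, and the negative control probes averaged 6.88 scaled counts with sucrose/oleate and 7.23 with starch/oleate. Single negative probes reached 18.4 scaled counts with sucrose/oleate and 21.7 with starch/oleate. Counts near 7 therefore cannot be told from background, and counts up to these highest values lie within the range of single negative probes. Cfd, Pparg and Cd36, which adipocytes express, were well above it in every library. The assay was read by its synthetic control targets, not taken from tissue, of which A over B gave a ratio of 2.92 to 3.07 in the sucrose/oleate libraries and 3.11 to 3.28 in the starch/oleate libraries. These ranges do not overlap, so this ratio and the diet cannot be told apart.

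With sucrose in place of starch, several transcripts of adipocytes and of vessel lining were higher. Several transcripts of B cells, 2 of the 3 tested of mast cells and that of the transferrin receptor were lower. Differences below are log2 differences ± SE, sucrose/oleate minus starch/oleate, from one edgeR fit over all 48 samples, and a gene is said to have risen or fallen where its adjusted p passed the threshold of 0.05. By this rule 25 genes rose, 5.09% of those tested, and 49 fell, 9.98%, which makes 74 genes or 15.1%. A difference of more than 2-fold was found for 4 of the genes that rose and 17 of those that fell. The median difference of all 491 genes was −0.14. Scaled instead by TMM, a factor computed from the immune genes themselves, that median was −0.00, and 49 genes (9.98%) rose and 31 (6.31%) fell, 80 genes or 16.3% in all. The rises made up 33.8% of the calls with reference genes and 61.3% with TMM. All 25 rises and 31 of the 49 falls were called in the same direction with both scalings, and no called gene turned its sign. Of the 14 reference genes themselves, tested in a fit of 505 genes, G6pdx, Hprt and Sdha rose and Gapdh, Oaz1 and Tubb5 fell.

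**Figure D1:**
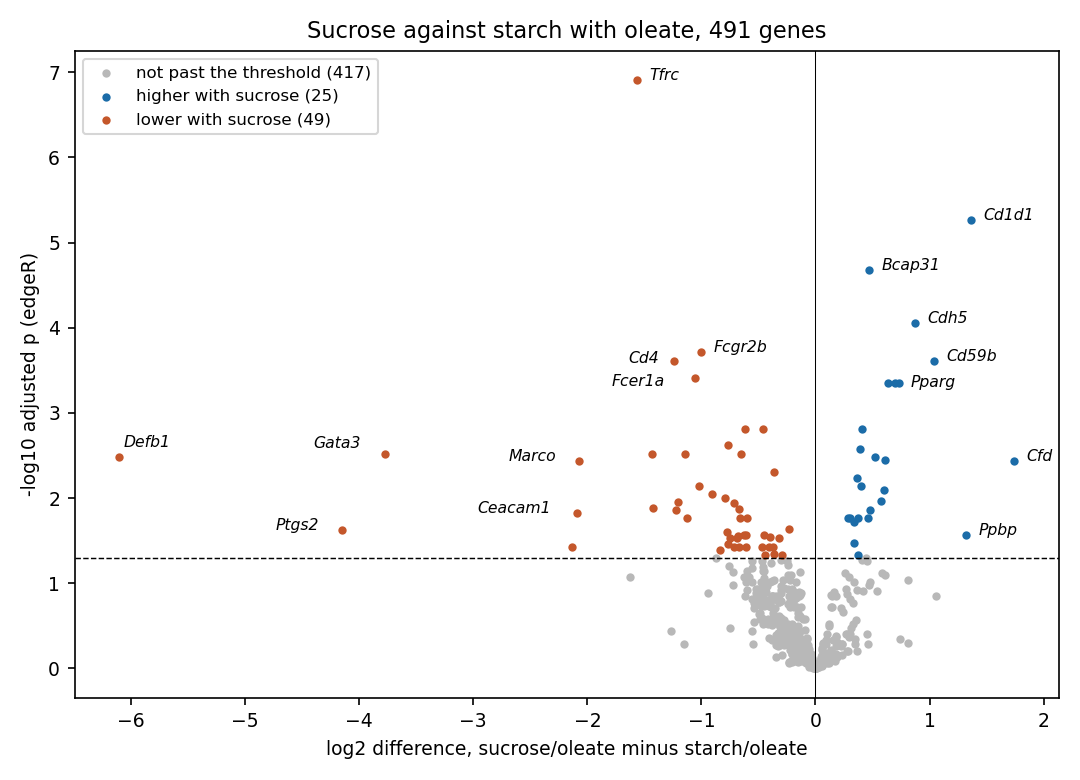
Each point is 1 of the 491 genes, with the log2 difference sucrose/oleate minus starch/oleate on the x axis and −log10 of the adjusted p from edgeR on the y axis; the dashed line marks the threshold of 0.05. The 25 genes that rose lie to the right and the 49 that fell to the left, with Tfrc the highest point at an adjusted p of 1.2e-07.

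In 10 genes the groups did not overlap in any of the 18 libraries, which is 2.04% of the genes tested. Sucrose/oleate lay above starch/oleate for 7 (1.43%), Bcap31, Cd1d1, Cd59b, Irak2, Map4k4, Pparg and Zeb1, and below it for 3 (0.611%), Hc, Marco and Prkcd. Bcap31, Map4k4, Zeb1 and Prkcd were picked for naming after their values were seen. Bcap31, a chaperone of the endoplasmic reticulum, ran from 3682 to 5302 scaled counts with sucrose and from 2731 to 3241 with starch, and rose by 0.47 ± 0.07 (adjusted p = 2.1e-05). Zeb1, a transcription factor, had 631.8 to 776 against 389 to 603 and rose by 0.40 ± 0.10 (adjusted p = 0.0072). Prkcd, a kinase of immune receptor signalling, had 1300.5 to 1906 against 2058 to 2950 and fell by 0.66 ± 0.15 (adjusted p = 0.0030).

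Adipocyte transcripts are shown first with the sequence before their gene starts, because they and the mast cell genes below differ in opposite directions. The sequences are the 250 bases before the start, written 5′ to 3′ on the gene's strand, from RefSeq on GRCm38.p6. They come from chr6:115421816-115422065 on the plus strand for Pparg, whose last of 3 listed starts was taken, and chr10:79890603-79890852 on the plus strand for Cfd. Those of the mast cell genes come from chr1:173227230-173227479 on the minus strand for Fcer1a and chr5:75574737-75574986 on the plus strand for Kit. For Kit the first of 2 listed starts was taken. Capitals mark matches, on either strand, to the C/EBP box TTNNGCAA or to the GATA motif AGATAA.
Pparg: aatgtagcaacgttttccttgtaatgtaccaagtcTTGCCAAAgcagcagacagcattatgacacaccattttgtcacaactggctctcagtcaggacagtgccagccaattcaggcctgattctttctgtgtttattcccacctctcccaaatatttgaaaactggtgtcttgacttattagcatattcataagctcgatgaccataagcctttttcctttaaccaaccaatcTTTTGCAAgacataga
Cfd: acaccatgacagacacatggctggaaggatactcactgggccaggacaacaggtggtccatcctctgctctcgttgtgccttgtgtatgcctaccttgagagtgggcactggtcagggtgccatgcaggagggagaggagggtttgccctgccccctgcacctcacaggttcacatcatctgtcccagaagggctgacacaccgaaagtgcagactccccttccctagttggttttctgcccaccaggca
Fcer1a: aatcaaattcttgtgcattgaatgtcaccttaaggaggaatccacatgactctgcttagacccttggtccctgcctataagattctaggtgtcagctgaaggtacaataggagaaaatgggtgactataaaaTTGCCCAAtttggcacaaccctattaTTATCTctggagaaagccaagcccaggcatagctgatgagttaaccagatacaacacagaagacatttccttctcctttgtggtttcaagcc
Kit: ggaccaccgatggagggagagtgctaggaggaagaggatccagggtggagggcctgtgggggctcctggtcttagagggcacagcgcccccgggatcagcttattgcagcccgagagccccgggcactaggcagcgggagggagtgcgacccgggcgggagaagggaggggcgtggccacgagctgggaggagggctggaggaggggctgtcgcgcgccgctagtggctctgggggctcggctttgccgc

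The Pparg window held 2 matches to the C/EBP box, beginning 215 and 16 bases before the start. The Fcer1a window held 1 match to the C/EBP box, 118 bases before the start, and 1 to the GATA motif, 92 bases before it. No match was found in the Cfd and Kit windows. Of 32851 windows of this length, 9.56% held the C/EBP box and 9.99% the GATA motif. The RefSeq table holds a window for 48 of the 74 called genes.

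Of the 4 tested genes of the lipid handling and adipocyte list, 3 rose, beside 5.09% of all genes, and none fell. The median was 1.05 against −0.14 for all genes, and the same 3 were called with TMM. Cfd encodes adipsin, a complement protease that adipocytes secrete. Its counts with sucrose were 5851 at the lowest, 9199 at the median and 32851 at the highest. With starch these were 1089, 3518 and 7957. The groups overlapped, with sucrose/oleate 2 and 6 above all others and starch/oleate 1 and 3 below all others. Cfd rose by 1.74 ± 0.43 (adjusted p = 0.0036), a 3.35-fold higher fitted level. With the A over B ratio added as a covariate the difference was 1.42 (adjusted p = 0.078).

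Pparg, the nuclear receptor that directs adipocyte differentiation, had 491.5, 588 and 734 counts with sucrose at the lowest, median and highest library, and 271, 379.5 and 421 with starch. Every sucrose/oleate library thus lay above every starch/oleate library. Pparg rose by 0.73 ± 0.15 (adjusted p = 0.00044). Cd1d1, a lipid-presenting molecule that adipocytes carry and that natural killer T cells recognise, had 3242, 5007 and 9144 counts with sucrose and 1051, 2051 and 2848 with starch, again with no overlap. Cd1d1 rose by 1.36 ± 0.20 (adjusted p = 5.4e-06). Cd36, a fatty acid transporter shared by adipocytes, vessels and macrophages, had 57617 to 73027 counts with sucrose and 45351 to 70706 with starch, a difference of 0.10 ± 0.14 (adjusted p = 0.66). In bulk tissue fewer cells of a type and less RNA per cell cannot be told apart. The summed counts of the list ran from 72910.5 to 114281 with sucrose and from 55859 to 75628 with starch. Cd36, which did not pass, held a large part of these sums. The mean log2 levels of the list, which weigh each gene equally, did not overlap. They were 12.39 to 13.45 with sucrose and 11.05 to 12.12 with starch.

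**Figure D2:**
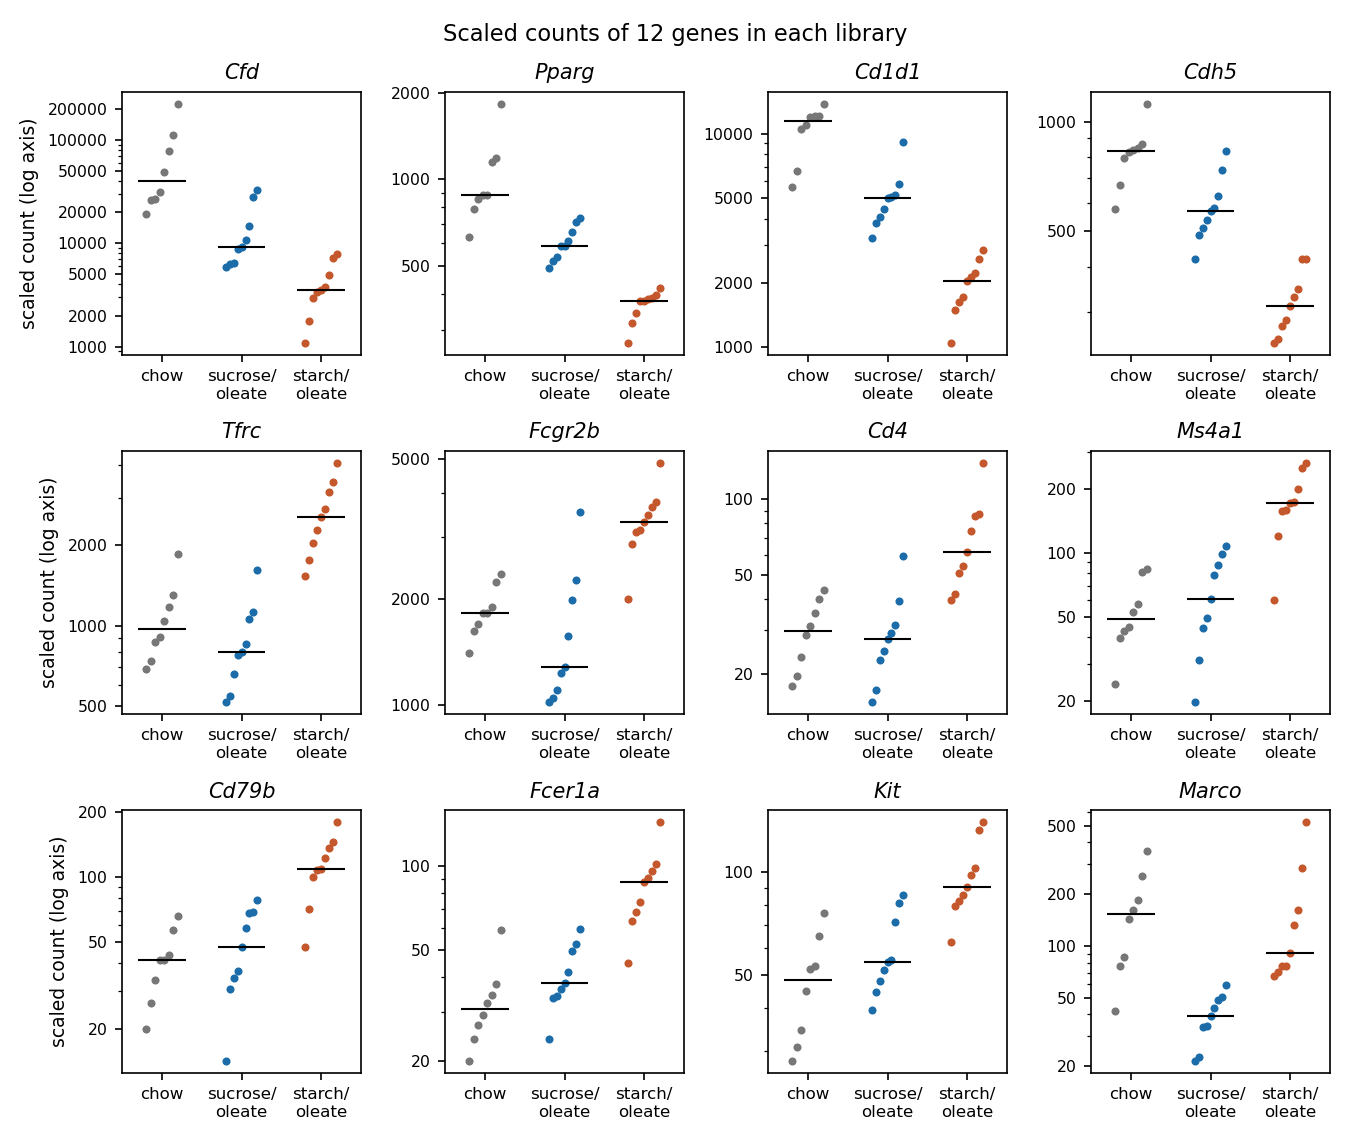
Each point is a library on chow, sucrose/oleate or starch/oleate, with the count scaled to the reference genes on a logarithmic y axis, and bars mark the group medians. For Cfd, Pparg, Cd1d1 and Cdh5 the median of sucrose/oleate lies between chow and starch/oleate, and for Tfrc, Fcgr2b, Cd4, Ms4a1, Cd79b, Fcer1a and Kit starch/oleate has the highest median.

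Of 8 tested genes of the endothelium list, which mark the vessel lining, 4 rose, beside 5.09% of all genes. None fell, and the median was 0.24. Cdh5 encodes VE-cadherin, the junction protein of endothelial cells. It had 420.2, 569 and 832 counts with sucrose at the lowest, median and highest library, and 247, 312 and 420.4 with starch. Only the lowest sucrose library lay within the starch range, just below its 2 highest libraries. Cdh5 rose by 0.87 ± 0.15 (adjusted p = 8.7e-05). Pecam1, the CD31 adhesion molecule, rose by 0.61 ± 0.15 (adjusted p = 0.0036), from 1104 to 1900.0 counts with starch to 1659 to 3912 with sucrose. Icam2, a resident adhesion molecule of endothelium, rose by 0.48 ± 0.14 (adjusted p = 0.014). The fourth was Cd34, a marker of endothelium and of stromal progenitors, picked for naming after its value was seen, at 0.38 ± 0.11 (adjusted p = 0.017).

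Vcam1 and Sele, which inflamed endothelium displays, had differences of −0.20 ± 0.15 and 0.11 ± 0.31 (adjusted p = 0.34 and 0.83). Itga6, the laminin-binding integrin α6, stood outside the list and rose by 0.69 ± 0.14 (adjusted p = 0.00044). The summed counts of the endothelium list, 7935 to 10911 with sucrose and 5180 to 7780.03 with starch, did not overlap. Cd34 held a large part of these sums, with 3700 to 6353 counts with sucrose and 2786 to 4775 with starch. The mean log2 levels of the list, which weigh each gene equally, did overlap. They ran from 8.33 to 9.04 with sucrose and from 8.09 to 8.54 with starch. All 4 endothelial calls were made in each fit that left out 1 of the 18 libraries.

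The complement list, which leaves out Hc given below, had 23 genes tested. Of these 3 rose and 1 fell, with a median of 0.09, a share called near the 15.1% of all genes. Besides Cfd these were Cfb, the factor B that adipsin cleaves to form the alternative pathway convertase, which rose by 0.64 ± 0.13 (adjusted p = 0.00044), and Cd59b, an inhibitor of the lytic pore, which rose by 1.04 ± 0.20 (adjusted p = 0.00025). Cd59b had 36.99 to 62.2 counts with sucrose and 12.1 to 28.4 with starch, without overlap. Its starch counts lie partly within the range of single negative probes, which reached 21.7 in that group. Cfp, properdin, which stabilises the same convertase and is made by leukocytes, fell by 0.80 ± 0.22 (adjusted p = 0.0099). Without sucrose/oleate 2, 3 genes of the list fell instead of 1.

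C3, the shared substrate of the complement pathways, had 6715 counts at the median with sucrose and 7157 with starch, and did not pass (−0.06 ± 0.16, adjusted p = 0.83; 0.06 with TMM). Sucrose/oleate 2 had 14026 counts of C3, against 5329 to 8163 in the other 8 libraries of its group. Hc, the gene of complement C5, stood outside the complement list and its counts of calls. Hc fell by 1.43 ± 0.34 (adjusted p = 0.0030). Its counts were low, 15.6 to 23.7 with sucrose and 25.9 to 81.8 with starch.

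Tfrc, the transferrin receptor that brings iron into cells, had the smallest adjusted p. It had 519, 797 and 1616 counts with sucrose at the lowest, median and highest library, and 1539, 2542 and 4066 with starch. Only the highest sucrose library reached the lowest starch library. Tfrc fell by 1.57 ± 0.19 (adjusted p = 1.2e-07), a 2.96-fold lower fitted level. Fcgr2b, the inhibitory Fc receptor of macrophages and B cells, named after its value was seen, fell by 1.01 ± 0.18 (adjusted p = 0.00019), from a median of 3318 with starch to 1285 with sucrose.

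Fcer1g and Ly96 fell among 18 tested genes of the macrophage list, with a median of −0.39. The 2 falls, with no rise, are a share near the 9.98% of all genes that fell. This count depended on the fit: 10 fell with only the compared groups in the fit, none with TMM, and 0 to 4 with single libraries left out. Fcer1g, the signalling chain of several Fc receptors, fell by 0.67 ± 0.23 (adjusted p = 0.038), and Ly96, the partner of toll-like receptor 4 in endotoxin binding, fell by 0.44 ± 0.16 (adjusted p = 0.046). With TMM neither was called (adjusted p = 0.057 and 0.11). Leaving out single libraries ended the Fcer1g call in 6 of 18 fits, between −0.74 and −0.62 over all 18, and the Ly96 call in 15 of 18, between −0.49 and −0.41. Emr1, which encodes the macrophage surface protein F4/80, had 2714 to 4910 counts with sucrose and 4049 to 6401 with starch, a difference of −0.38 ± 0.24 (adjusted p = 0.28). With only the compared groups in the fit it differed by the same −0.38 and passed (adjusted p = 0.012). The summed counts of the macrophage list ran from 43585 to 64269 with sucrose and from 51934 to 89285 with starch.

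None of the 4 tested genes of lipid-associated macrophages, which take up lipid from dying adipocytes, passed in the fit of all 48 samples. The differences were −0.42 ± 0.28 for Trem2, 0.05 ± 0.31 for Itgax and −0.16 ± 0.16 for Cd9 (adjusted p = 0.30, 0.93 and 0.51). Trem2 passed with only the compared groups in the fit (−0.42, adjusted p = 0.021). With Itgax, the gene of CD11c, sucrose/oleate 2 had 2559 counts and the other 8 libraries of its group 5582 to 8908.

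Among genes of resident macrophages, 2 of 7 fell, beside 9.98% of all genes, and none rose, with a median of −0.18. Marco, a scavenger receptor, had 21.5, 38.96 and 59.4 counts with sucrose at the lowest, median and highest library, and 67.3, 90.5 and 526.2 with starch. The groups did not overlap, and starch/oleate 1 and 8 had the 2 highest counts. Marco fell by 2.07 ± 0.51 (adjusted p = 0.0036), and by 1.61 to 2.17 with single libraries left out. Maf, a transcription factor of resident macrophages, fell by 0.62 ± 0.14 (adjusted p = 0.0015). With the mean of the lymph node list, which holds neither gene, as a covariate, the differences were −0.77 for Marco and −0.28 for Maf, and neither passed (adjusted p = 0.39 and 0.12). Cd163, the haemoglobin scavenger receptor of the same cells, did not pass (0.23 ± 0.22, adjusted p = 0.51).

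Of 12 tested B cell genes 7 fell, beside 9.98% of all genes, and none rose. All 12 had a difference below 0, with a median of −0.77 against −0.14 for all genes. Ms4a1, the gene of CD20, had 19.8, 60.4 and 107.8 counts with sucrose at the lowest, median and highest library, and 60.0, 171.5 and 265 with starch. The starch library at 60.0 was the only one within the sucrose range. Ms4a1 fell by 1.43 ± 0.40 (adjusted p = 0.013). Cd79b, a signalling chain of the B cell receptor, fell by 1.22 ± 0.35 (adjusted p = 0.014). Pax5, the factor that keeps B cell identity, fell by 1.20 ± 0.33 (adjusted p = 0.011), at low counts of 8.64 to 25.7 with sucrose and 16.3 to 48.5 with starch. Cd22, an inhibitory receptor of B cells, fell by 0.77 ± 0.24 (adjusted p = 0.025), and by 0.74 without sucrose/oleate 6 (adjusted p = 0.052).

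With TMM 6 of the 12 fell, with only the compared groups in the fit 12, and with single libraries left out 5 to 8. Blnk, an adaptor of the same receptor that macrophages also express, held a large part of the list's summed counts, with medians of 1743 and 2161, and did not pass (−0.41 ± 0.21, adjusted p = 0.16). The sums ran from 2243 to 3278 with sucrose and from 3304 to 4426 with starch. The lymph node list, of which Ms4a1 and Ccr7 are examples, overlaps the B cell list. Of its 10 tested genes 5 fell, beside 9.98% of all genes, with a median of −0.72. Its summed counts were 396 to 6448 with sucrose and 714 to 1808 with starch. The sum of 6448 belonged to sucrose/oleate 2, in which Cxcl13, a chemokine of lymphoid follicles, had 5490.3 counts. The part of lymph node tissue in these differences was not tested directly, since a fit with the list's own mean as a covariate removes differences in its members partly by construction. Under that covariate none of the 12 B cell genes was called, and 10 genes in all fell. The number of lymph node genes that fell was 2 to 7 with single libraries left out, and 2 without sucrose/oleate 6.

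Of 19 T cell genes 2 fell and none rose, a share near the 9.98% of all genes that fell, with a median of −0.32. Cd4, the co-receptor of helper T cells that some macrophages also carry, had 15.5, 27.7 and 59.3 counts with sucrose at the lowest, median and highest library, and 39.7, 61.4 and 139 with starch. The lowest of its sucrose counts lie within the range of single negative probes, which reached 18.4 in that group. Cd4 fell by 1.24 ± 0.23 (adjusted p = 0.00025). Thy1, expressed by T cells and by stromal cells, fell by 0.77 ± 0.18 (adjusted p = 0.0024). The receptor chains of T cells did not pass: Cd3d differed by −0.15 ± 0.21, Cd3e by −0.46 ± 0.30 and Cd8a by −0.62 ± 0.30 (adjusted p = 0.67, 0.30 and 0.14), the last at counts close to the negative controls. These 3 were chosen for naming after their values were seen.

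Of 11 genes of regulatory T cells and checkpoints 1 rose, beside 5.09% of all genes. This was Il2ra, the α chain of the interleukin 2 receptor, at 0.46 ± 0.14 (adjusted p = 0.017). Without sucrose/oleate 6 it differed by 0.36 (adjusted p = 0.070). Of 12 dendritic cell genes 1 rose and 1 fell, beside 5.09% and 9.98% of all genes. Icosl, a costimulatory ligand, rose by 0.37 ± 0.13 (adjusted p = 0.046). Ccr7, the lymph node homing receptor, fell by 0.61 ± 0.21 (adjusted p = 0.038). Both rested on the full set of libraries: the Icosl call was lost in 13 of 18 fits with a library left out, between 0.31 and 0.41, and the Ccr7 call in 10 of 18, between −0.71 and −0.53.

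Mast cell genes fell in 2 of 3 tested, beside 9.98% of all genes, with a median of −0.71. Fcer1a, the α chain of the high-affinity IgE receptor, had 24.03, 38.1 and 59.3 counts with sucrose at the lowest, median and highest library, and 45.1, 87.6 and 144 with starch. Fcer1a fell by 1.05 ± 0.21 (adjusted p = 0.00039). Kit, the stem cell factor receptor, had 39.6, 54.8 and 86.0 counts with sucrose and 62.4, 90.5 and 140 with starch, and fell by 0.71 ± 0.20 (adjusted p = 0.011). With TMM the difference of Kit was −0.56 (adjusted p = 0.060), and with the control ratio added as a covariate −0.47 (adjusted p = 0.16). The third gene, Il1rl1, the interleukin 33 receptor, did not pass (−0.38 ± 0.18, adjusted p = 0.14). The summed counts of the list were 284 to 451 with sucrose and 363 to 758 with starch.

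Among 16 inflammatory cytokine genes 3 fell, beside 9.98% of all genes, and none rose, with a median of −0.29. With TMM 3 fell and 2 rose, and over all alternatives 0 to 4 fell and 0 to 2 rose. Il1a fell by 1.02 ± 0.27 (adjusted p = 0.0073), at counts of 6.84 to 12.96 with sucrose that lie near the negative controls and 9.03 to 29.3 with starch. Ccl4, a chemokine for monocytes and T cells, fell by 0.69 ± 0.22 (adjusted p = 0.029), a call lost in 5 of 18 fits with a library left out, in a range of −0.75 to −0.62. Tnf, Il1b and Ccl2, the cytokines most often measured in obese fat, did not pass at −0.29 ± 0.24, −0.16 ± 0.43 and −0.03 ± 0.22 (adjusted p = 0.44, 0.83 and 0.95), and with TMM Ccl2 was at 0.11. For Il1b the difference rested on a high library in each group. Sucrose/oleate 2 had 199 counts against 12.9 to 33.5 in the other 8 libraries of its group. Without it Il1b differed by −1.05 (adjusted p = 0.036). Starch/oleate 1 had 161 counts against 17.2 to 64.3 in the rest of its group. Without that library Il1b differed by 0.37 and did not pass.

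Ptgs2, the inducible cyclooxygenase that makes prostaglandins, fell by 4.15 ± 1.29 (adjusted p = 0.024), but unevenly. Starch/oleate 1 to 5 had 1009.9, 2575, 1421, 1319.5 and 1806 counts, starch/oleate 6 had 112, and starch/oleate 7 to 9 had 21.1, 33.8 and 32.1. With sucrose all 9 libraries had 26.8 to 100.6 counts. With the control ratio added as a covariate the difference was −0.47 (adjusted p = 0.87), and with the replicate number as a block −3.54 (adjusted p = 0.072).

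Epithelial genes set single starch libraries apart. Of 6 tested genes of the epithelium list 2 fell, Defb1 and Ceacam1, beside 9.98% of all genes, with a median of −0.87. Defb1, an antimicrobial peptide of epithelia, had 2731 counts in starch/oleate 2, 2632 in starch/oleate 6, 265.5 in starch/oleate 4 and 10.1 to 38.3 in the other 6 libraries. With sucrose it had 4.24 to 15.6 counts, at the level of the negative controls. Ceacam1, an epithelial adhesion molecule also found on endothelium, had 1487 counts in starch/oleate 2 and 2543 in starch/oleate 6, against 162 to 316 in the other 7 and 123 to 170.1 with sucrose.

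Cd24a and Gata3, outside that list, were also highest in starch/oleate 2 and 6, with 5446 and 8538 counts of Cd24a and 1587 and 2071 of Gata3. For Gata3, starch/oleate 1, 3, 4 and 5, at 152, 174, 437 and 311, also lay above all sucrose libraries, at 15.5 to 62.5, and starch/oleate 7 to 9, at 38.3 to 57.3, lay within their range. Defb1 fell (adjusted p = 0.0033), by an amount that these counts do not fix, since its sucrose level is that of the background. The fitted differences were −2.09 ± 0.60 for Ceacam1, −2.13 ± 0.72 for Cd24a and −3.78 ± 0.89 for Gata3, a transcription factor of epithelia and type 2 lymphocytes (adjusted p = 0.015, 0.038 and 0.0030). The epithelium list summed to 359 to 628 counts with sucrose and 312 to 5656 with starch. Without the 5 libraries of the study that were high in the epithelium list, starch/oleate 2 and 6 among them, Ceacam1 (−0.58, adjusted p = 0.012) and Gata3 (−2.14, adjusted p = 0.040) passed, whereas Cd24a (−0.36, adjusted p = 0.69) and Defb1 (adjusted p = 0.064) did not. Without starch/oleate 2 and 6 and sucrose/oleate 2, a set chosen after seeing the data, none of the 4 passed (adjusted p = 0.43 and 0.067 for Ceacam1 and Gata3, 0.62 and 0.16 for Cd24a and Defb1). Without starch/oleate 6 alone Ceacam1 differed by −1.37 (adjusted p = 0.083) and Cd24a by −1.38 (adjusted p = 0.15), and without starch/oleate 2 alone Cd24a by −1.78 (adjusted p = 0.090). Across all genes, leaving out these 3 libraries gave 23 rises and 77 falls.

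**Figure D3:**
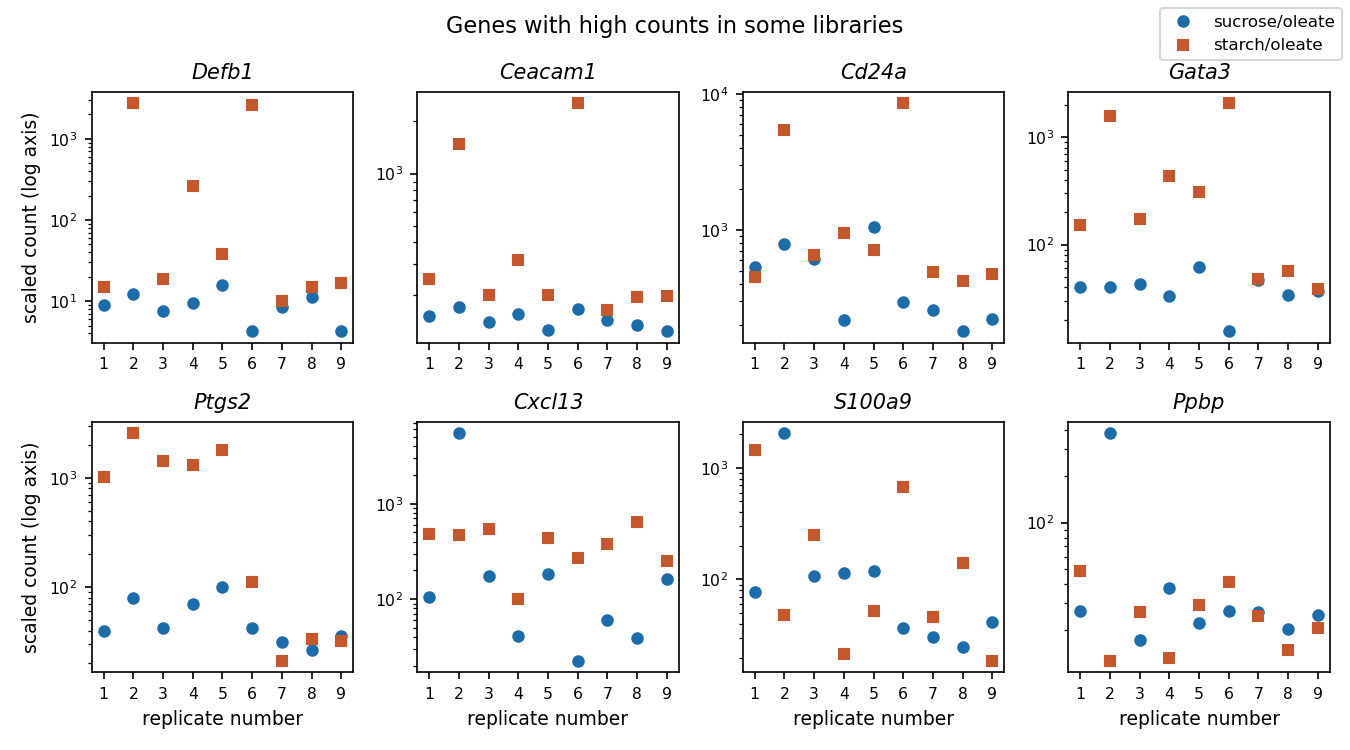
Each panel shows the scaled count of a gene, on a logarithmic axis, in the 9 sucrose/oleate and the 9 starch/oleate libraries by replicate number. The labels do not say whether these numbers follow an order of handling. Starch/oleate 2 and 6 lie apart for Defb1, Ceacam1, Cd24a and Gata3, starch/oleate 1 to 5 for Ptgs2, and sucrose/oleate 2 for Cxcl13, S100a9 and Ppbp.

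A further call rested on 1 library. Ppbp, a chemokine stored in platelets, rose by 1.32 ± 0.42 (adjusted p = 0.027), with 381 counts in sucrose/oleate 2, 17.3 to 37.9 in the other 8 libraries of its group and 12.7 to 48.7 with starch. Without sucrose/oleate 2 the difference was −0.02 (adjusted p = 0.94). S100a9, a neutrophil gene, had 2051 counts in the same library and 24.9 to 120.2 in the other 8, while starch/oleate 1 and 6 had 1456 and 673. The neutrophil list had no call among 6 genes, and 3 genes that fell without sucrose/oleate 2.

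The lists in this paragraph gave no call or 1 rise in the main fit, where 5.09% of all genes rose and 9.98% fell. None of 16 interferon response genes, 16 JAK, STAT and SOCS genes, 14 natural killer and cytotoxic genes, 9 MHC class II genes or 7 MHC class I genes passed in the main edgeR fit. Their medians were −0.04, −0.06, −0.19, 0.03 and 0.10. With TMM 3 of the MHC class I genes and 1 natural killer and cytotoxic gene rose. The MHC class I gene H2-Q10 rose by 1.06 with only the compared groups in the fit (adjusted p = 0.0032) and by 1.20 with DESeq2 (adjusted p = 0.0010). Without the libraries high in the epithelium list it rose by 1.15 (adjusted p = 0.020). In other settings up to 3 natural killer and cytotoxic, 2 JAK, STAT and SOCS, 1 MHC class II and 1 interferon response genes fell. Up to 2 JAK, STAT and SOCS genes rose. Over all 491 genes 161 had an unadjusted p under 0.05. Of 24 genes of toll-like receptor and NF-kappa B signalling 1 rose, Irak2, a kinase below the interleukin 1 receptor, by 0.28 ± 0.08 (adjusted p = 0.017), with 917.5 to 1124 counts against 726 to 887. Of 11 cell death genes 1 rose, Fas, the death receptor, by 0.58 ± 0.16 (adjusted p = 0.011). It did not pass with the control ratio (0.50, adjusted p = 0.080) or the lymph node mean (0.41, adjusted p = 0.17) as a covariate.

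Matrix and transforming growth factor beta genes had 1 rise and 1 fall among 18, beside 5.09% and 9.98% of all genes. Smad5, a transducer of bone morphogenetic proteins, rose by 0.34 ± 0.10 (adjusted p = 0.019), and by 0.30 without starch/oleate 1, where the call was lost. Plaur, the urokinase receptor, fell by 0.66 ± 0.20 (adjusted p = 0.017). Under the same covariates Plaur differed by −0.67 and −0.42 and did not pass (adjusted p = 0.067 and 0.31). Its ligand Plau was at 0.02 ± 0.13 (adjusted p = 0.95). Tgfbr1, a receptor of the growth factor, had medians of 2461 and 2628 counts and did not pass (−0.04 ± 0.12, adjusted p = 0.84; 0.11 with TMM).

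Some further calls named here did not pass with a covariate added. With the control ratio these were Ccl4, Ccr7, Cd24a, Fcer1g, Icosl, Il2ra, Ppbp and Smad5 (adjusted p = 0.061 to 0.19). With the lymph node mean they were Ccl4, Ccr7, Cd24a, Fcer1g, Hc, Il1a, Il2ra, Irak2, Kit, Ly96, Ptgs2 and Smad5 (adjusted p = 0.061 to 0.84). All kept their sign.

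**Figure D4:**
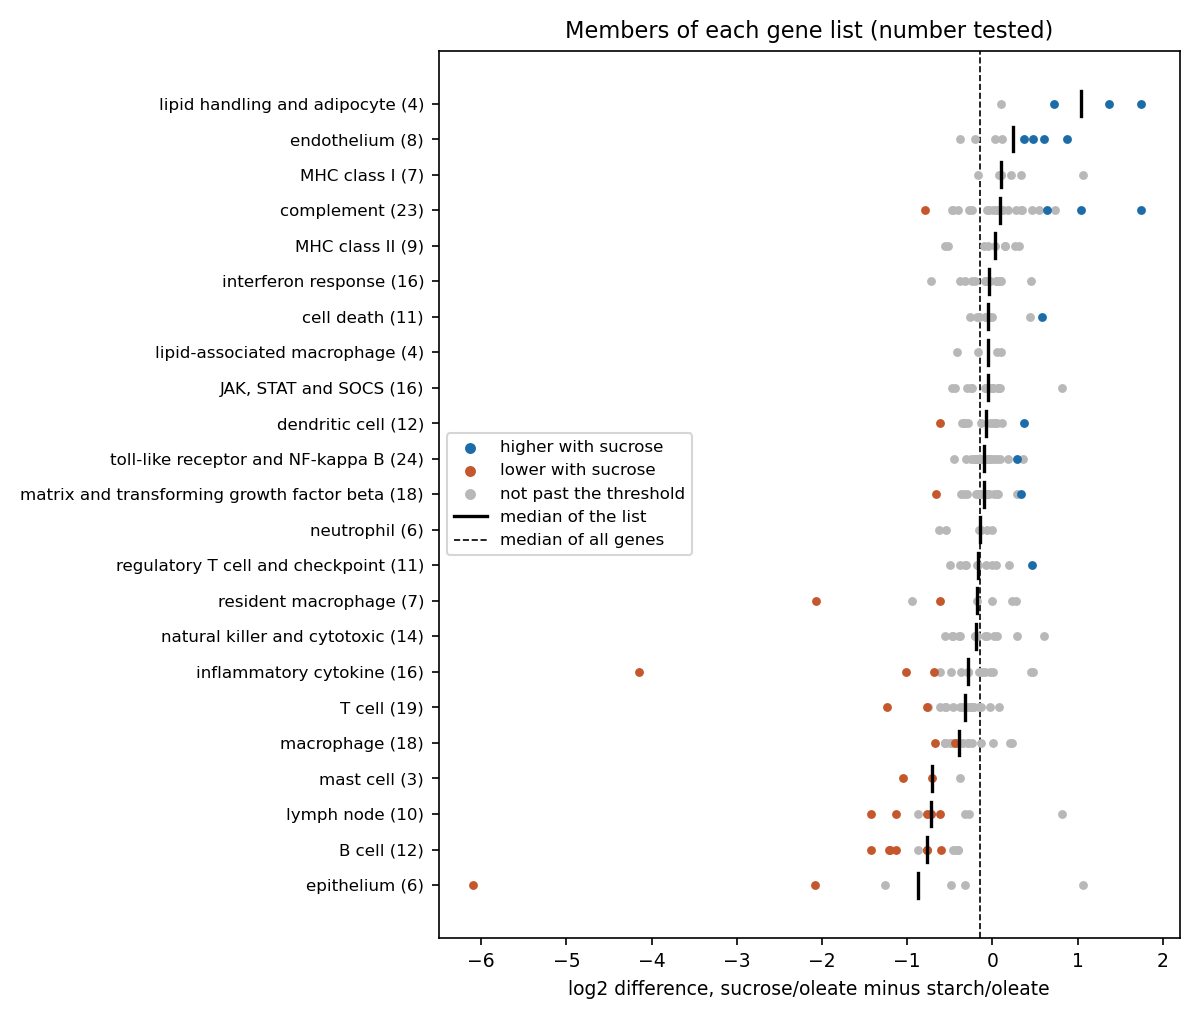
Points are the tested genes of each list, with the number tested in brackets, at their log2 difference sucrose/oleate minus starch/oleate; solid bars mark list medians and the dashed line the median of all 491 genes, −0.14. The lipid handling and adipocyte list has the highest median, 1.05, and the epithelium and B cell lists the lowest, −0.87 and −0.77.

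Set against chow, the 2 oleate diets can be placed side by side, with the caution that both comparisons use the same 8 chow samples. Sucrose/oleate had 142 genes above chow and 38 below, 28.9% and 7.74% of those tested, and starch/oleate 237 and 59, 48.3% and 12%. With TMM these were 106 and 76 for sucrose/oleate, 21.6% and 15.5%, and 156 and 127 for starch/oleate, 31.8% and 25.9%. Cfd had a median of 40102 counts on chow, and was lower by 2.37 ± 0.44 on the log2 scale with sucrose/oleate and by 4.11 ± 0.48 with starch/oleate. Pparg had a chow median of 883 and differed from chow by −0.76 ± 0.15 and −1.49 ± 0.15, and Cdh5 by −0.47 ± 0.15 and −1.35 ± 0.16. Each of these passed against chow in both diets (largest adjusted p = 0.013).

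The genes that fell between the diets had another order. For Tfrc the difference from chow was −0.28 ± 0.19 with sucrose/oleate (adjusted p = 0.28) and 1.29 ± 0.20 with starch/oleate (adjusted p = 8.8e-07). For Ms4a1 these were 0.27 ± 0.42 (adjusted p = 0.64) and 1.70 ± 0.42 (adjusted p = 0.00065). For Fcer1a they were 0.32 ± 0.22 (adjusted p = 0.26) and 1.38 ± 0.22 (adjusted p = 1.3e-06). Of the 12 B cell genes 4 were above chow with sucrose/oleate and 12 with starch/oleate, with medians of 0.33 and 1.30 beside 0.19 and 0.34 for all genes. Macrophage genes were above chow with both diets, 14 and 16 of 18. Emr1 was higher by 1.14 ± 0.25 and 1.52 ± 0.26, and Itgax by 1.97 ± 0.33 and 1.92 ± 0.33 (largest adjusted p = 0.00058). Marco was lower than chow with sucrose/oleate (−2.06 ± 0.52, adjusted p = 0.0016) and did not pass with starch/oleate (0.01 ± 0.49, adjusted p = 0.98).

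The same exchange of sucrose for starch was made with palmitate in 15 other samples, 8 with sucrose and 7 with starch. There 3 genes rose, 0.611% of those tested, and 7 fell, 1.43%, together 2.04%. Called with both fats, in the same direction, were Defb1, Ceacam1 and Il2ra, which are 4.05% of the oleate calls and 30% of the palmitate calls. For Defb1 the highest starch/palmitate library had 17524.5 counts against a median of 115. Of the 74 genes called with oleate 47 had the same sign with both fats, beside 271 of all 491 genes. Without the libraries high in the epithelium list the palmitate step had 0 calls. Over the 491 genes, which are not independent replicates, the differences of the 2 steps had a Pearson correlation of 0.40 and a Spearman correlation of 0.22. Defb1 and Ceacam1, the latter at −2.09 with oleate and −2.62 with palmitate, lay far below 0 in both steps. Their weight in these correlations was not tested.

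The difference between the steps was tested as an interaction, oleate step minus palmitate step, and passed for 27 genes, 5.5%, of which 7 (1.43%) were higher and 20 (4.07%) lower with oleate. Among these 27, 21 were also called in the oleate step, the comparison that supplies its first term. Tfrc differed between the fats by −1.40 ± 0.28 (adjusted p = 0.0027), with 630 to 1142 counts with sucrose/palmitate and 727 to 1165 with starch/palmitate. Both palmitate ranges lay below the lowest starch/oleate library, at 1539. Cd1d1 differed by 1.19 ± 0.29 (adjusted p = 0.017), with medians of 6157 and 5769 counts with sucrose/palmitate and starch/palmitate.

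For Cd79b and Ms4a1 the differences had opposite signs with the fats. Cd79b, at 0.93 ± 0.38 with palmitate (adjusted p = 0.30), and Ms4a1, at 0.77 ± 0.44 (adjusted p = 0.56), had interactions of −2.15 ± 0.52 and −2.20 ± 0.60 (adjusted p = 0.015 and 0.023). With palmitate the spread was wide: Ms4a1 ran from 40.9 to 344 counts with sucrose and from 28.6 to 217 with starch. Without sucrose/palmitate 7 the interaction of Ms4a1 was −1.87 (adjusted p = 0.053) and that of Pax5 went from −1.76 to −1.57 (adjusted p = 0.053). Cd79b passed with each of the 33 libraries left out in turn.

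Of the other genes named above, Cd4 (−1.24 ± 0.34, adjusted p = 0.024), Il1a (−1.83 ± 0.42, adjusted p = 0.011) and Maf (−0.75 ± 0.20, adjusted p = 0.023) passed in those 33 fits as well. The interactions of Fcer1a (−1.04 ± 0.31, adjusted p = 0.032) and Marco (−2.34 ± 0.73, adjusted p = 0.045) did not: the calls were lost in 11 and 20 of the 33 fits, between −1.13 and −0.90 and between −2.81 and −1.58. Kit, at −1.03 ± 0.29 (adjusted p = 0.027), lost the call without sucrose/palmitate 3, at −0.94 (adjusted p = 0.053), and without starch/palmitate 1. Pparg, Cdh5 and Cfd did not pass the interaction (0.64 ± 0.21, 0.67 ± 0.22 and 1.07 ± 0.62, adjusted p = 0.073, 0.069 and 0.35), so their steps are not shown to differ between the fats.

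A further 3 interactions had a palmitate library far above the rest. H2-Q10, an MHC class I gene, had 8669 counts in its highest starch/palmitate library against a median of 351, and its interaction was 3.93 ± 0.77 (adjusted p = 0.0027) and 1.64 without starch/palmitate 3 (adjusted p = 0.036). It passed in each of the 33 fits with a library left out. The oleate step of H2-Q10, at 1.06, did not pass in the main fit. Pigr, the epithelial carrier of IgA, had 8629 counts against a median of 46.8, with an interaction of 4.40 ± 1.37 (adjusted p = 0.045) and 0.34 without the same library (adjusted p = 0.90). Stat4, the transducer of interleukin 12, had 1191 counts in its highest sucrose/palmitate library against a median of 47.8, and −2.12 ± 0.66 (adjusted p = 0.045) became −0.15 without sucrose/palmitate 4 (adjusted p = 0.77). Pigr and Stat4 were named after their values were seen. With the control ratio added as a covariate the interaction had 0 calls, and 27 without it. That ratio ran from 2.99 to 3.56 with sucrose/palmitate and from 2.92 to 3.16 with starch/palmitate, and these ranges overlap. The part of the ratio in the interaction was not tested apart from diet.

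**Figure D5:**
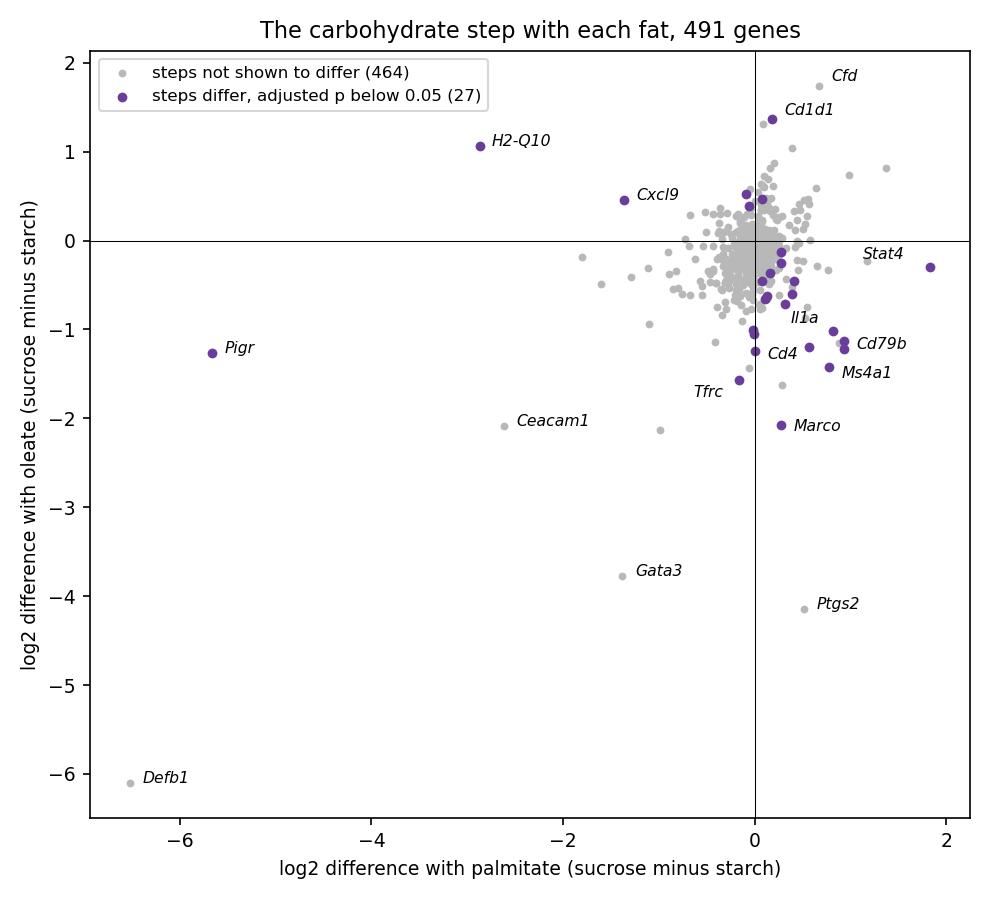
Each point is 1 of the 491 genes, with the log2 difference sucrose minus starch with palmitate on the x axis and with oleate on the y axis; purple marks the 27 genes whose 2 differences differ by the interaction test. Tfrc, Cd4 and Cd1d1 lie near 0 on the x axis and away from 0 on the y axis, while Defb1 and Ceacam1 are low with both fats.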

How the data were processed

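Gene counts were measured in 48 samples of epididymal fat, and the 18 of the 2 oleate diets are the subject here; groups come from the labels. The deposited table holds whole-number counts per probe, not scaled between samples, judging by its values; the authors' counting software is not given in the sources used here. The lowest count is 1. Symbols are printed as in the table; 558 of 561 probes matched a RefSeq table.

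Scaling used the geometric mean of the 14 reference genes. Immune genes averaging 10 counts or more were fitted by quasi-likelihood in edgeR 4.0.16 (R 4.3.3; limma 3.58.1) over all 48 samples with a mean per diet, two-sided, Benjamini-Hochberg adjusted over 491 genes; 56 genes fell below the minimum. SE is the absolute difference over the root of F. The fit was tested on simulated data. The 23 lists and the genes named (the 8 highest and 8 lowest differences, up to 3 genes a list, the 5 smallest interaction p-values and 16 fixed genes, a subset of which is given) were chosen with earlier results of these data known. A gene the rule selects is withheld and not reported here; it stayed in the fit and the list counts.

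Precision is limited by 9 samples a group. The lowest chi-square per degree of freedom between 2 of the 18 libraries was 5.14 over 153 pairs, so none is a copy of another. Alternatives were TMM, no minimum, a minimum of 30, a replicate block, only the compared groups, DESeq2 1.42.0, the positive control ratio or the lymph node list mean as a covariate, leaving out the 5 libraries whose epithelium list lay over 3 median absolute deviations high, and each library left out; leaving out 3 libraries set apart was chosen after seeing the data.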

Additional observations from a re-analysis of the deposited data

Results flagged for a closer look

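In 12 of 104 pairs of gene and group, 1 library lay farther from the rest than Dixon's criterion allows; chance flags about 1 in 20. Sucrose/oleate 2 gave 6 of these. It was the highest library of its group for C3 (14026 scaled counts, others 5329 to 8163), Icam2 (453, others 247 to 331), Il1b (199, others 12.9 to 33.5) and Ppbp (381, others 17.3 to 37.9). It was the lowest for Itgax (2559, others 5582 to 8908) and Thy1 (141, others 220.4 to 336). Starch/oleate 6 was the lowest of its group for Cd22 (124, others 182 to 253), Maf (243, others 363 to 477) and Plaur (307, others 605 to 742). Starch/oleate 1 was the highest for Ccl2 (1907, others 883 to 1114), and starch/oleate 3 the lowest for Il1a (9.03, others 16.9 to 29.3). Sucrose/oleate 6 was the lowest for Gata3 (15.5, others 33.2 to 62.5).

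In the main edgeR fit the sucrose against starch difference passed the interaction test between the fats for 12 of the named genes. It was lower with oleate for Cd4 (−1.24), Cd79b (−2.15), Fcer1a (−1.04), Il1a (−1.83), Kit (−1.03), Maf (−0.75), Marco (−2.34), Ms4a1 (−2.20), Pax5 (−1.76) and Tfrc (−1.40). It was higher for Cd1d1 (1.19) and H2-Q10 (3.93). Adding the A over B ratio to the fit left 0 interaction calls. Of 33 fits with a library left out, Marco lost its call in 20, Fcer1a in 11, Kit in 2, and Ms4a1 and Pax5 in 1 each. The other genes kept theirs. With TMM Fcer1a (adjusted p = 0.056) and Kit (0.084) did not pass. With the replicate block Fcer1a (adjusted p = 0.052) and Marco (0.19) did not.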

How the results depend on the processing

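Of 25 rises and 49 falls with oleate, TMM gave 49 and 31, DESeq2 51 and 36, and the positive control ratio as a covariate 16 and 44. Falls numbered 118 with only the compared groups in the fit, 10 with the lymph node list mean as a covariate and 77 without the 3 libraries set apart. With each library left out in turn, rises ran from 22 to 28 and falls from 27 to 73, with 27 without sucrose/oleate 6 and 32 without starch/oleate 8. Ppbp turned to −0.0014 without the 3 libraries set apart; with single libraries left out it ran from −0.025, without sucrose/oleate 2, to 1.48. The 27 interaction calls became 42 with DESeq2, 0 with the ratio, 6 with the lymph node mean, and 19 to 37 with a library left out. The 10 palmitate calls became 1 with the replicate block, 0 with only the compared groups, 1 with the ratio, 0 without the libraries high in the epithelium list, and 0 to 15 with a library left out (0 without starch/palmitate 3, 6 without sucrose/palmitate 6 or 7). The cause was not tested. With the replicate block the oleate step had 24 rises and 37 falls, with 60 of the 74 calls kept. The 9 same-numbered pairs correlated by 0.061 on average, from −0.023 to 0.349, beside −0.003 for pairs of different numbers. Of the 9, 1 correlated best with its own number. Whether the numbers stand for a pairing or an order of handling was not tested. Of 38 named called genes, 12 kept their call under all 10 alternatives and with each library left out: Cd1d1, Cd4, Cd59b, Cdh5, Cfb, Fcer1a, Icam2, Itga6, Pecam1, Pparg, Tfrc and Thy1. Counts near the negative controls limit Defb1, Il1a and Pax5. Hc, Ccl4, Cd4, Cd79b, Gata3 and Ppbp with sucrose had counts partly within the range of single negative probes. The same held for Cd59b, Ppbp and Ptgs2 with starch.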
